A study of Mus musculus with 24 samples.

Results

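The unfolded protein response and the chaperones of the endoplasmic reticulum (ER) were examined in brown adipose tissue (BAT) through 10 genes, namely Hspa5, Hsp90b1, Calr, Pdia4, Sdf2l1, Dnajb9, Herpud1, Xbp1, Atf4 and Ddit3. The genes were chosen by symbol, and each symbol was matched to the Ensembl identifier of a row in the count table. All 10 were found among the 12615 genes of the table, and all 10 were among the 12485 genes that passed the filter on low counts and were tested. RNA of 24 mice was sequenced from the 3′ ends of transcripts, 1 tag for each, and a long transcript therefore gives no more counts than a short one, which allows levels of different genes to be set side by side.

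The mice formed 4 groups of 6 by labelled genotype and temperature. BATdKO mice were Ucp1CreERT2 positive and carried floxed alleles of both corepressor genes (TBLR1 fl/fl and TBL1 fl/fl), and the Cre- controls carried the same floxed alleles and were Ucp1CreERT2 negative. The recombinase is driven by the Ucp1 promoter and activated by tamoxifen, so deletion is directed to brown adipocytes and other cells of the tissue keep both genes. All groups received tamoxifen, and the change of temperature began 3 weeks after the last injection. Mice were raised at 22°C. The warm groups were then kept at 30°C for 4 days, and the cold groups passed through 1 day each at 18°C, 16°C and 12°C before 6 days at 8°C. Female mice are named in the labels, which also give an age at injection of 5 in years where the study's methods have weeks. The study's text gives a shorter stay in the cold and its legend gives males. The libraries of the 2 temperatures carry identifiers from separate series, so temperature and library series cannot be told apart.

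Most secreted and membrane proteins fold in the ER with the help of chaperones and disulfide-forming enzymes. When unfolded proteins build up there, the sensors IRE1, PERK and ATF6 signal to the nucleus, IRE1 by splicing Xbp1 mRNA, PERK by favouring translation of Atf4, and ATF6 by release of a transcription factor. Their targets include the chaperones, the machinery of ER-associated degradation and, under lasting stress, Ddit3, which encodes CHOP. Brown adipocytes take on a high load of lipid and protein synthesis in the cold, and the pathway is active in them. Counts at the 3′ end measure neither the splicing of Xbp1 nor the translation of Atf4.

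The labelled tissue was checked against marker genes before the comparisons. All 11 brown adipocyte markers were in the table, and their summed level ran from 719 to 6196 CPM (the usual per-million scale of counts, on library sizes after TMM normalization) over the 24 mice. Their sum spanned 719 to 4473 CPM in Cre- mice at 30°C, 2735 to 5104 in Cre- mice at 8°C, 1287 to 4314 in BATdKO mice at 30°C and 3205 to 6196 in BATdKO mice at 8°C. Ucp1, which encodes the uncoupling protein of brown fat, had 28.9 to 548 CPM in the 12 mice at 30°C and 968 to 2076 CPM in the 12 mice at 8°C. Fabp4, also among the markers, reached 2509 CPM, so single genes weigh heavily in the sum. The 10 hepatocyte markers were counted in every library and summed to between 31302 and 45673 CPM. Albumin alone had 5686 to 14393 CPM, above Ucp1 in every mouse. Genes of another tissue thus held a larger share of the counts than the 11 listed brown adipocyte markers in all 24 libraries. The share of each of the 10 genes that came with that RNA was not tested. In such mixed tissue, fewer cells of a type and less RNA per cell cannot be told apart.

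Total counts ran from 699703 to 11527643 per library, with the lowest in Cre- mouse m4 at 30°C. Cre- mice m1 and m3 at 30°C stood apart with 3532 and 8235 CPM summed over 12 skeletal muscle markers, whereas the other libraries had at most 1502 CPM. Tbl1xr1, which encodes TBLR1, was higher under the BATdKO label than under the Cre- label at 8°C (33.7 to 44.3 against 18.2 to 24.6 CPM). At 30°C it was at 38.6 CPM in Cre- mouse m6, while the other Cre- mice had at most 24.6 CPM. BATdKO mouse m6 at 30°C had 17.0 CPM, while the other BATdKO mice there had at least 29.8 CPM. These 2 mice also lay outside the range of their group in brown adipocyte markers, with 4473 CPM in Cre- mouse m6 against at most 2315 CPM in the other Cre- mice at 30°C, and 1287 CPM in BATdKO mouse m6 against at least 2332 CPM in the other BATdKO mice at 30°C. Where the floxed exons lie relative to the sequenced tags is not given in the sources used here. Tbl1x, the second floxed gene, was also higher under the BATdKO label at 8°C, with 42.4 to 63.6 CPM against 38.7 to 43.8 CPM and a log2 difference of 0.39 (adjusted p = 0.0633, edgeR), next to 0.92 for Tbl1xr1 (adjusted p = 0.00348). Whether labels were exchanged, for the whole groups or for both mice m6 at 30°C, was not tested. The groups are named by their labels throughout, and every direction by genotype rests on the labels as given.

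The promoters of 4 genes are shown because their sequences set Hspa5, Hsp90b1, Calr and Herpud1 apart from the other 6 genes. The ER stress response element (ERSE), a target of ATF6 and XBP1, was searched as CCAAT and CCACG with 9 bases between them. Its variant ERSE-II was searched as ATTGG and CCACG with 1 base between them. The core of the unfolded protein response element was searched as TGACG followed directly by TGG, and an ATF4 site as TGATG and AA with 1 base between them. All were searched on both strands of the RefSeq window from 250 bases before to 50 after the transcript start in GRCm38.p6, which was found for all 10 genes. ERSE was present in 3 of the 10 (Hspa5, Calr and, at 2 places, Hsp90b1) and in 0.119% of 32851 promoters. ERSE-II was present in Herpud1 and in 0.0365% of promoters, and the ATF4 site was present in Herpud1 and in 3.97% of promoters. The core of the unfolded protein response element was in 0 of the 10 windows and in 0.676% of promoters. The windows that hold a match are printed 5′ to 3′ on the strand of the gene, with the matches in capitals, and a match on the other strand therefore reads as its reverse complement. They end before the gene as GENCODE annotates it. The ERSE of Hspa5 lies inside the first exon of a longer GENCODE transcript and is shown with 5 bases on each side.
Hspa5, chr2:34772020-34772048, plus strand: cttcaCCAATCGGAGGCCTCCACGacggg
Hsp90b1, chr10:86705510-86705694, minus strand: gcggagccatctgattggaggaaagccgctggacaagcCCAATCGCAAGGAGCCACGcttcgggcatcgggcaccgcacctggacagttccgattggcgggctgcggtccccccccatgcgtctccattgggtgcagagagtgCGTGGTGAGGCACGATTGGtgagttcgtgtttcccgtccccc
Calr, chr8:84846935-84847181, minus strand: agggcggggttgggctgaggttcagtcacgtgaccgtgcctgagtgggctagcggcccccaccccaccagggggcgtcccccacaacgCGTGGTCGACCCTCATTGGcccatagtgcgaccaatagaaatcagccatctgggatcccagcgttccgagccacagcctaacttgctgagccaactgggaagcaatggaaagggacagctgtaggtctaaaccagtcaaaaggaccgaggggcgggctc
Herpud1, chr8:94386179-94386428, plus strand: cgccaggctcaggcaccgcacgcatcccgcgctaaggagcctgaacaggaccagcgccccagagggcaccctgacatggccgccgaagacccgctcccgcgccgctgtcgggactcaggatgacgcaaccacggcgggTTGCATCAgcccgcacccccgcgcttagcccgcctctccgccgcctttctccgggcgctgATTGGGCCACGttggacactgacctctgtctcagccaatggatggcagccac

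The 10 genes differed widely in level and little between groups. Hspa5, which encodes the master chaperone BiP, was the most abundant with a mean of 576 CPM over the 24 mice, followed by Calr (410 CPM), which encodes the lectin chaperone calreticulin, and Hsp90b1 (266 CPM), which encodes GRP94. Atf4, the transcription factor downstream of PERK, had 114 CPM. Herpud1, a component of ER-associated degradation, had 93.7 CPM, and Pdia4, a disulfide isomerase, had 93.3 CPM. The remaining genes were rarer, with 18.5 CPM for Xbp1, the transcription factor downstream of IRE1, 12.2 CPM for Sdf2l1, a partner of BiP, 9.11 CPM for Dnajb9, a DnaJ co-chaperone of BiP, and 8.48 CPM for Ddit3. The highest of the 4 group means exceeded the lowest by 1.04 times for Hsp90b1 and by 1.48 times for Ddit3, and the other 8 genes lay between these. Ddit3 was counted 11 to 124 times per library and Hspa5 432 to 6506 times, so the rarer genes carry the larger counting error. The ranges of the 2 groups overlapped for all 10 genes in every comparison, whereas they did not overlap for 2.93% of all tested genes for cold in Cre- mice, 2.99% for cold in BATdKO mice, 1.95% for genotype at 8°C and 0.296% for genotype at 30°C.

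**Figure D1:**
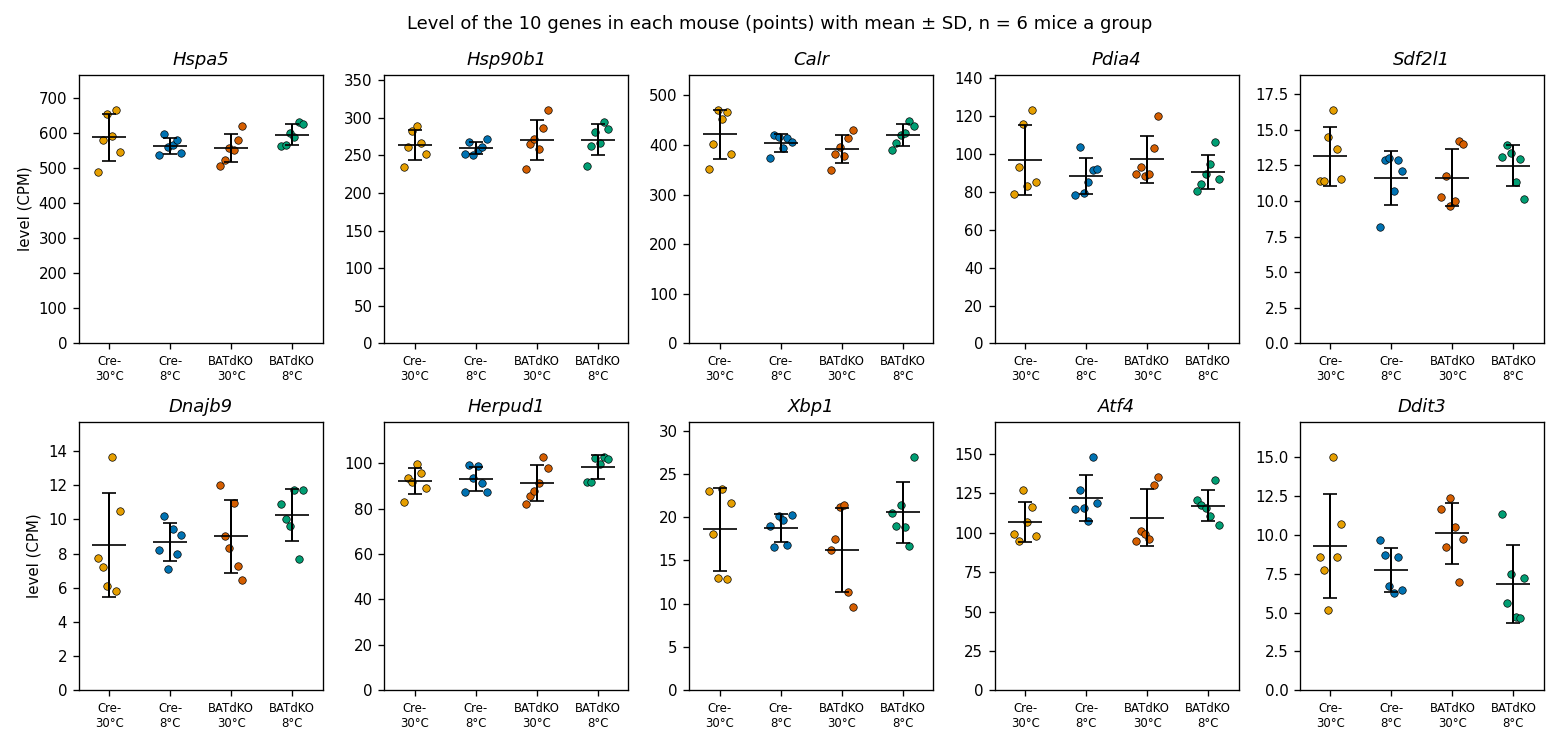
Level in CPM (y axis, linear from 0) of each of the 10 genes in each mouse (points) of the 4 groups (x axis), with the mean as a line and the SD as whiskers, n = 6 mice a group. The groups overlap in every panel, and Ddit3, with a mean of 10.1 CPM in BATdKO mice at 30°C and 6.83 CPM in BATdKO mice at 8°C, has the most unequal group means.

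Among the chaperones, Hspa5 lies on chromosome 2 of GRCm38 from 34771970 to 34777547. Its level ran from 488 to 666 CPM (median 585) in Cre- mice at 30°C and from 538 to 598 CPM (median 561) in Cre- mice at 8°C. In BATdKO mice it ran from 507 to 619 CPM (median 554) at 30°C and from 562 to 632 CPM (median 594) at 8°C. The 6 Cre- mice at 30°C covered the range of all other groups. The log2 fold change with cold was -0.06 (standard error, SE, 0.07, adjusted p = 0.736 by edgeR's quasi-likelihood test with Benjamini-Hochberg adjustment) in Cre- mice and 0.10 (SE 0.07, adjusted p = 0.528) in BATdKO mice. The 95% intervals reached from -0.20 to 0.09 and from -0.05 to 0.24. A change of BiP mRNA in the RNA of the whole sample beyond 0.25 on the log2 scale in either direction thus lies outside both. The samples are mixed tissue, so these intervals do not bound a change within brown adipocytes alone.

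Calr, on chromosome 8 from 84841850 to 84846934, had 421 ± 49.3 CPM (SD, n = 6) in Cre- mice at 30°C and 404 ± 17.7 CPM at 8°C. The BATdKO groups had 392 ± 28.1 CPM at 30°C and 421 ± 22.1 CPM at 8°C. The difference between genotypes was smaller than the SD of the Cre- mice in the warm (log2 difference -0.10, 95% interval -0.25 to 0.04) and of similar size to the SDs in the cold (0.06, 95% interval -0.09 to 0.21). Hsp90b1, on chromosome 10 from 86690209 to 86705509, varied least between groups, with means of 264 ± 19.9 and 259.6 ± 8.55 CPM in Cre- mice and 270.4 ± 26.6 and 271 ± 20.9 CPM in BATdKO mice at 30°C and 8°C. Its log2 fold change with cold was -0.02 in Cre- mice (95% interval -0.17 to 0.12) and 0.00 in BATdKO mice (-0.14 to 0.15). Exons of Hsp90b1 overlap a gene on the other strand and a pair of genes on its own strand, so some of its counts could belong to those.

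Pdia4, on chromosome 6 from 47796141 to 47813430, spanned 78.4 to 123 CPM, and the highest values were those of Cre- mouse m5 (123 CPM) and BATdKO mouse m6 (120.2 CPM), both at 30°C. Its log2 fold change with cold was -0.14 in Cre- mice (95% interval -0.36 to 0.08) and -0.10 in BATdKO mice (-0.32 to 0.11). Sdf2l1, on chromosome 16 from 17130138 to 17132383, spanned 8.19 to 16.4 CPM with group means between 11.6 and 13.1 CPM. Dnajb9, on chromosome 12 from 44205559 to 44210326, spanned 5.80 to 13.7 CPM with group means between 8.49 and 10.3 CPM. None of these 3 genes passed the threshold in any comparison. Dnajb9 had a log2 difference of 0.23 (95% interval -0.11 to 0.57) between genotypes at 8°C, the widest of the chaperone differences by genotype. Herpud1, on chromosome 8 from 94386438 to 94395377, was the steadiest gene between single mice, from 81.9 to 103 CPM. Its log2 fold change was 0.02 (95% interval -0.11 to 0.16) with cold in Cre- mice and 0.11 (95% interval -0.02 to 0.24) with cold in BATdKO mice.

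Of the transcription factors, Xbp1 lies on chromosome 11 from 5520659 to 5525893. It ran from 12.8 to 23.2 CPM (median 19.8) in Cre- mice at 30°C and from 16.6 to 20.2 CPM (median 19.3) at 8°C. In BATdKO mice it ran from 9.61 to 21.4 CPM (median 16.8) at 30°C and from 16.6 to 27.0 CPM (median 19.7) at 8°C. The spread was wide in both warm groups, where the 4 lowest of the 24 values were found. The log2 fold change with cold was 0.05 (SE 0.17, adjusted p = 0.944, edgeR) in Cre- mice and 0.33 (SE 0.17, adjusted p = 0.332) in BATdKO mice.

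Atf4, on chromosome 15 from 80255184 to 80257541, ran from 94.6 to 127 CPM (median 103) in Cre- mice at 30°C and from 107 to 148 CPM (median 117) at 8°C. In BATdKO mice it reached 135 CPM (median 100.4, mean 109.6 ± 18.2, SD, n = 6) at 30°C and ran from 105 to 134 CPM (median 117) at 8°C. In each genotype the median was higher in the cold, but the groups overlapped. The log2 fold change with cold was 0.19 (SE 0.10, adjusted p = 0.312, edgeR) in Cre- mice and 0.10 (SE 0.10, adjusted p = 0.683) in BATdKO mice.

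Ddit3 was the only gene of the 10 that changed, and it did so in 1 comparison. It lies on chromosome 10 from 127290774 to 127296288 and encodes CHOP, a transcription factor that promotes cell death under lasting ER stress. The 6 BATdKO mice at 30°C had 11.7, 9.23, 12.4, 10.5, 6.94 and 9.76 CPM, and the 6 BATdKO mice at 8°C had 11.3, 5.60, 7.48, 4.71, 4.62 and 7.24 CPM. All but BATdKO mouse m1 at 8°C, a library of 2738613 counts, lay below 5 of the 6 warm mice. The log2 fold change with cold in BATdKO mice was -0.64 (SE 0.20, adjusted p = 0.0663, edgeR), with a 95% interval from -1.05 to -0.23. An exact two-sided permutation test of the same 12 values gave p = 0.0325, which was 0.444 after adjustment over the 40 tests of single genes.

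In Cre- mice, Ddit3 ran from 5.14 to 15.0 CPM (median 8.57) at 30°C, where the highest value rests on the 11 counts of the shallowest library, and from 6.27 to 9.64 CPM (median 7.64) at 8°C. The log2 fold change was -0.14 (95% interval -0.55 to 0.26). The difference between both cold effects was -0.50 on the log2 scale (95% interval -1.07 to 0.08, adjusted p = 0.664 for the interaction, edgeR), so the effect of cold on Ddit3 was not shown to differ between genotypes. The call in BATdKO mice was lost without any one of BATdKO mice m1 or m3 at 30°C and m2, m4 or m5 at 8°C, with adjusted p between 0.120 and 0.170 and log2 fold changes between -0.60 and -0.56, and with the summed hepatocyte markers as a covariate (log2 fold change -0.56, adjusted p = 0.204). Hepatocyte markers summed to 31302 to 39869 CPM in BATdKO mice at 30°C and 35951 to 45673 CPM at 8°C, and their part in the result was not tested beyond that covariate. Ddit3 shares exon sequence with a second annotated Ddit3 identifier on its own strand and with Mars and Gm4189 on the other strand, and whether reads were counted by strand is not given in the sources used here.

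In Cre- mice with cold, 0 of the 10 genes had an adjusted p under 0.1, where 9.15% of the 12485 tested genes passed. In BATdKO mice with cold, 1 of the 10 passed and was lower, where 7.07% of tested genes passed in either direction and 3.31% were lower. Between genotypes, 0 of the 10 passed at 8°C, where 1.82% of tested genes passed, and 0 of the 10 passed at 30°C, where 0% did. The interaction gave 0 of the 10 against 0.0961% of tested genes. In the 4 comparisons with no call by edgeR, DESeq2 also called 0 of the 10, and 0 of the 10 had an unadjusted p under 0.05. These shares are near the background or too small to read with 10 genes.

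The median size of the log2 fold change, whatever its direction, was smaller for the 10 genes than for all tested genes, at 0.09 against 0.15 with cold in Cre- mice, 0.10 against 0.15 with cold in BATdKO mice, 0.08 against 0.12 for genotype at 8°C and 0.09 against 0.12 for genotype at 30°C. The sets were not matched for level, and rarer genes carry the larger counting error, so no greater stability of the 10 genes is read from this. With its direction, the median log2 fold change of the 10 genes was -0.04 with cold in Cre- mice, 0.10 with cold in BATdKO mice, 0.07 for genotype at 8°C and 0.00 for genotype at 30°C. Over all tested genes it was -0.02, 0.00, 0.00 and -0.01 in the same order. Of the 10 genes, 8 were above 0 with cold in BATdKO mice and 8 were above 0 for genotype at 8°C, while 4 were above 0 in each of the other 2 comparisons. Both comparisons with 8 use the same BATdKO mice at 8°C, so these counts are not independent. The 95% intervals lay within 1 log2 unit of 0 for all 10 genes in the comparisons of Cre- mice with cold and of genotype at both temperatures, and for 9 of the 10 in BATdKO mice with cold, the exception being Ddit3. A 2-fold change of any of them in the RNA of the whole sample would therefore lie outside the interval in those 3 comparisons. A change within brown adipocytes alone is not bounded by these intervals.

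**Figure D2:**
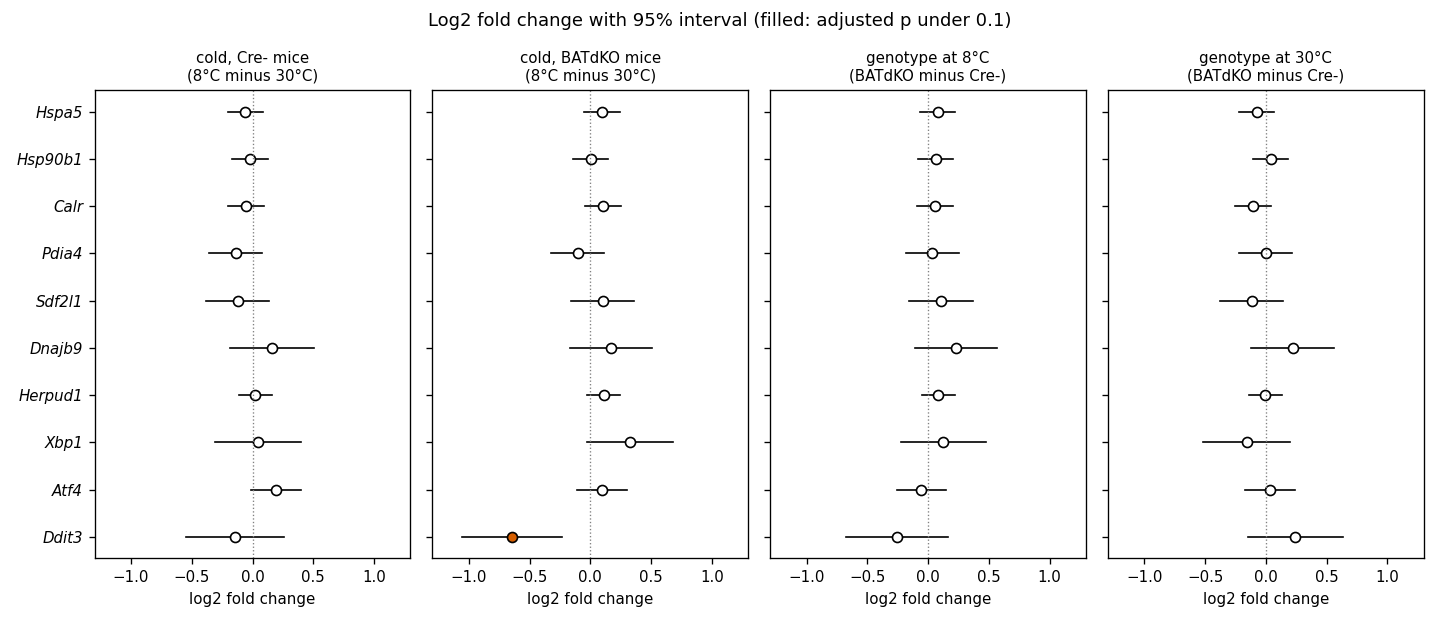
Log2 fold change (x axis) of the 10 genes (y axis) in 4 comparisons (panels), with points for the estimate and lines for the 95% interval, and with filled points where the adjusted p is under 0.1. Ddit3 at -0.64 with cold in BATdKO mice is the filled point, and the intervals of Herpud1, Hspa5, Hsp90b1 and Calr are the narrowest.

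Other genes of the pathway were then counted from lists of 105 tested genes. Of the 105, 8 rose and 2 fell with cold in Cre- mice, 7 rose and 3 fell with cold in BATdKO mice, and 2 were lower in BATdKO than in Cre- mice at 8°C. At 30°C and for the interaction, edgeR called 0. As background, 5.57% of all tested genes rose and 3.59% fell with cold in Cre- mice, 3.76% rose in BATdKO mice, and 0.697% were higher and 1.12% lower in BATdKO mice at 8°C.

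Of 25 other chaperones and folding enzymes, 0 passed with cold in Cre- mice and 2 rose with cold in BATdKO mice. Hyou1, a large chaperone of the ER that exchanges nucleotide on BiP, had 29.1 ± 5.30 CPM (SD, n = 6) at 30°C and 36.4 ± 4.57 CPM at 8°C in BATdKO mice. Its log2 fold change was 0.33 (SE 0.10, adjusted p = 0.0674, edgeR). Dnajb11, a DnaJ co-chaperone of BiP, rose by 0.31 (SE 0.10, adjusted p = 0.0792). Both had a log2 fold change of 0.02 in Cre- mice. Neither passed in the interaction (adjusted p = 0.601 and 0.624), so the cold effects were not shown to differ. The call of Hyou1 was lost without any one of BATdKO mice m1, m5 or m6 at 30°C and m3, m4 or m6 at 8°C (adjusted p 0.112 to 0.180), with only the groups compared (0.160) and without both mice m6 at 30°C (0.148). The call of Dnajb11 was lost without Cre- mouse m2 at 30°C, without BATdKO mice m1, m2, m5 or m6 at 30°C, or without BATdKO mice m1, m2, m4 or m6 at 8°C (adjusted p 0.103 to 0.227). It was also lost with DESeq2 (0.102), with only the groups compared (0.107), without libraries under 3000000 counts (0.1002) and without both mice m6 at 30°C (0.197). With the hepatocyte markers as a covariate both were lost, with log2 fold changes of 0.24 for Hyou1 (adjusted p = 0.274) and 0.16 for Dnajb11 (adjusted p = 0.446). In the other 3 comparisons 0 of the 25 passed, and the gene with the smallest p was Fkbp2 with cold in Cre- mice (log2 fold change 0.61, adjusted p = 0.193), P4hb for genotype at 8°C (0.09, adjusted p = 0.815) and Dnajb11 for genotype at 30°C (-0.26, adjusted p = 0.347).

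Derl1, which encodes the retrotranslocation protein Derlin-1, was the only one of 19 tested genes of ER-associated degradation to pass, and it did so in 3 comparisons. The Cre- mice had 62.6 to 87.5 CPM at 30°C (median 72.5) and 89.7 to 119 CPM at 8°C (median 96.7). The BATdKO mice had 52.3 to 68.0 CPM at 30°C (median 63.1) and 67.5 to 87.8 CPM at 8°C (median 77.8). The ranges did not overlap with cold in Cre- mice or between genotypes at 8°C. With cold, the log2 fold change was 0.46 (SE 0.08, adjusted p = 0.000694, edgeR) in Cre- mice and 0.33 (SE 0.08, adjusted p = 0.0182) in BATdKO mice. At 8°C, Derl1 was lower in BATdKO mice by a log2 difference of -0.34 (SE 0.08, adjusted p = 0.0388), a call that was lost without Cre- mouse m3 or without BATdKO mouse m3 at 8°C (adjusted p = 0.116 and 0.113). The gene with the smallest p at 30°C was Erlec1, an ER lectin, at 0.33 (adjusted p = 0.272).

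Of 21 genes of ER translocation and signal peptide removal, 1 rose with cold in Cre- mice. That was Sec11c, a catalytic subunit of the signal peptidase, with 10.5 ± 2.42 CPM (SD, n = 6) at 30°C and 14.0 ± 1.10 CPM at 8°C and a log2 fold change of 0.33 (SE 0.11, adjusted p = 0.0758, edgeR). The call was lost without any one of Cre- mice m1, m3 or m5 at 30°C and m4, m5 or m6 at 8°C (adjusted p 0.106 to 0.201), without Cre- mice m1, m3 and m4 at 30°C together (0.239), with only the groups compared (0.153), without libraries under 3000000 counts (0.103) and with DESeq2 (0.107). In the other comparisons 0 of the 21 passed, and the gene with the smallest p was Spcs3, a signal peptidase subunit, with cold in BATdKO mice (-0.37, adjusted p = 0.306) and for genotype at 30°C (0.53, adjusted p = 0.279), and Srp9, part of the signal recognition particle, for genotype at 8°C (-0.21, adjusted p = 0.726).

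Of 19 sensors and regulators, Ppp1r15b rose with cold in both genotypes. It encodes the constitutive subunit that directs a phosphatase to eIF2α and so opposes PERK. Its log2 fold change was 0.47 (SE 0.11, adjusted p = 0.0091, edgeR) in Cre- mice and 0.36 (SE 0.11, adjusted p = 0.0637) in BATdKO mice. The call in BATdKO mice was lost without any one of BATdKO mice m2, m5 or m6 at 30°C and m1, m2, m4 or m6 at 8°C (adjusted p 0.102 to 0.177), with only the groups compared (0.105), without both mice m6 at 30°C (0.109) and with the hepatocyte covariate (log2 fold change 0.35, adjusted p = 0.149). Bak1, a pro-apoptotic relative of BCL2, fell with cold in BATdKO mice by 0.59 on the log2 scale (SE 0.16, adjusted p = 0.0354), and its call was lost without BATdKO mouse m4 at 8°C (adjusted p = 0.103) and with the hepatocyte covariate (log2 fold change -0.44, adjusted p = 0.200). At 8°C the genotype difference with the smallest p was that of Eif2ak2, which encodes the kinase PKR, at 0.41 (adjusted p = 0.184), and at 30°C that of Bak1 at 0.28 (adjusted p = 0.559).

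The list of ATF4 and CHOP target genes held the most calls, with 5 of 21 higher and 2 of 21 lower with cold in Cre- mice and 3 higher and 2 lower with cold in BATdKO mice. Over all tested genes, 9.15% and 7.07% passed in either direction. Of the 28 genes listed, 22 were in the count table and 21 were tested. Atf3, Fgf21, Slc7a11, Slc7a5, Phgdh and Stc2 were absent from the table. The genes that rose included Cebpb and Cebpg, transcription factors of the C/EBP family that pair with ATF4 or CHOP, Slc3a2, the heavy chain of amino acid transporters, Gars, a glycyl-tRNA synthetase, and Sesn2, a stress-induced regulator of mTORC1. The genes that fell were Trib3, a pseudokinase that CHOP induces, and Nupr1, a small stress-induced chromatin protein.

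Cebpb rose from 9.57 to 15.6 CPM (median 11.0) in Cre- mice at 30°C to 19.1 to 29.4 CPM (median 21.7) at 8°C. None of the warm mice reached the lowest cold mouse, and the log2 fold change was 0.87 (SE 0.14, adjusted p = 0.000172, edgeR). In BATdKO mice the log2 fold change of Cebpb was 0.48 (SE 0.14, adjusted p = 0.0475). That call was lost without any one of BATdKO mice m6 at 30°C and m1, m2 or m4 at 8°C (adjusted p 0.107 to 0.111) and without libraries under 3000000 counts (0.108). Slc3a2 rose by 1.09 (SE 0.22, adjusted p = 0.00248) in Cre- mice and by 0.67 (SE 0.22, adjusted p = 0.0872) in BATdKO mice, and the call in BATdKO mice was lost in 10 of the 24 fits that left out 1 mouse (adjusted p 0.101 to 0.195). These were the fits without Cre- mouse m2 at 30°C, Cre- mouse m1 at 8°C, BATdKO mice m2, m5 or m6 at 30°C, and each BATdKO mouse at 8°C other than m5. The call was also lost with robust dispersion (0.142), with only the groups compared (0.116), without libraries under 3000000 counts (0.120) and without both mice m6 at 30°C (log2 fold change 0.49, adjusted p = 0.103). Gars rose by 0.42 in Cre- mice and by 0.49 in BATdKO mice, and both calls held in all 24 such fits.

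Cebpg and Sesn2 rose with cold in Cre- mice, by 0.66 (adjusted p = 0.00882) and 0.76 (adjusted p = 0.0241), and had log2 fold changes of 0.04 and -0.31 in BATdKO mice. The interaction did not pass for either gene (adjusted p = 0.448 and 0.228, edgeR). Sesn2 was not counted in Cre- mouse m4 at 30°C, the shallowest library with 699703 counts, so that 0 says little. Its genotype difference at 30°C was 0.95 (adjusted p = 0.149, edgeR). Exons of Cebpg overlap genes on both strands, and exons of Cebpb, Ppp1r15b and Bak1 overlap genes on the other strand.

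Trib3 and Nupr1 changed in the same direction as Ddit3. Trib3 had a median of 9.47 CPM in Cre- mice at 30°C and 5.62 CPM at 8°C, and 11.0 and 5.59 CPM in BATdKO mice. It fell with cold by 0.72 on the log2 scale (SE 0.17, adjusted p = 0.00932, edgeR) in Cre- mice and by 0.89 (SE 0.17, adjusted p = 0.0018) in BATdKO mice, and no fit that left out 1 mouse ended either call. Nupr1 spanned 3.63 to 8.89 CPM in BATdKO mice at 30°C and 1.31 to 2.60 CPM at 8°C. These ranges did not overlap, and the log2 fold change was -1.82 (SE 0.31, adjusted p = 0.000482). At 8°C the Cre- mice had 3.89 to 7.07 CPM of Nupr1, all above the BATdKO mice, with a log2 difference of -1.62 between genotypes (SE 0.32, adjusted p = 0.00554). The values of BATdKO mice at 8°C rest on few reads per library, as with 1.31 CPM in BATdKO mouse m1, a library of 2738613 counts. Both differences of Nupr1 therefore carry a large counting error. In Cre- mice, Nupr1 fell with cold by 0.87 (adjusted p = 0.0348), but without Cre- mouse m1 at 30°C, which had 19.8 CPM and was a library with skeletal muscle markers, the log2 fold change was -0.48 (adjusted p = 0.209), without Cre- mice m1, m3 and m4 at 30°C together it was -0.30 (adjusted p = 0.615), and without Cre- mouse m4 at 8°C the adjusted p was 0.105. The interaction for Nupr1 was -0.96 (95% interval -1.79 to -0.13, adjusted p = 0.542), so the cold effects were not shown to differ. Asns and Ppp1r15a, 2 further targets of ATF4 that were named after their values were seen, did not pass in any comparison, with log2 fold changes with cold of -0.11 and 0.18 in Cre- mice and -0.36 and -0.06 in BATdKO mice.

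**Figure D3:**
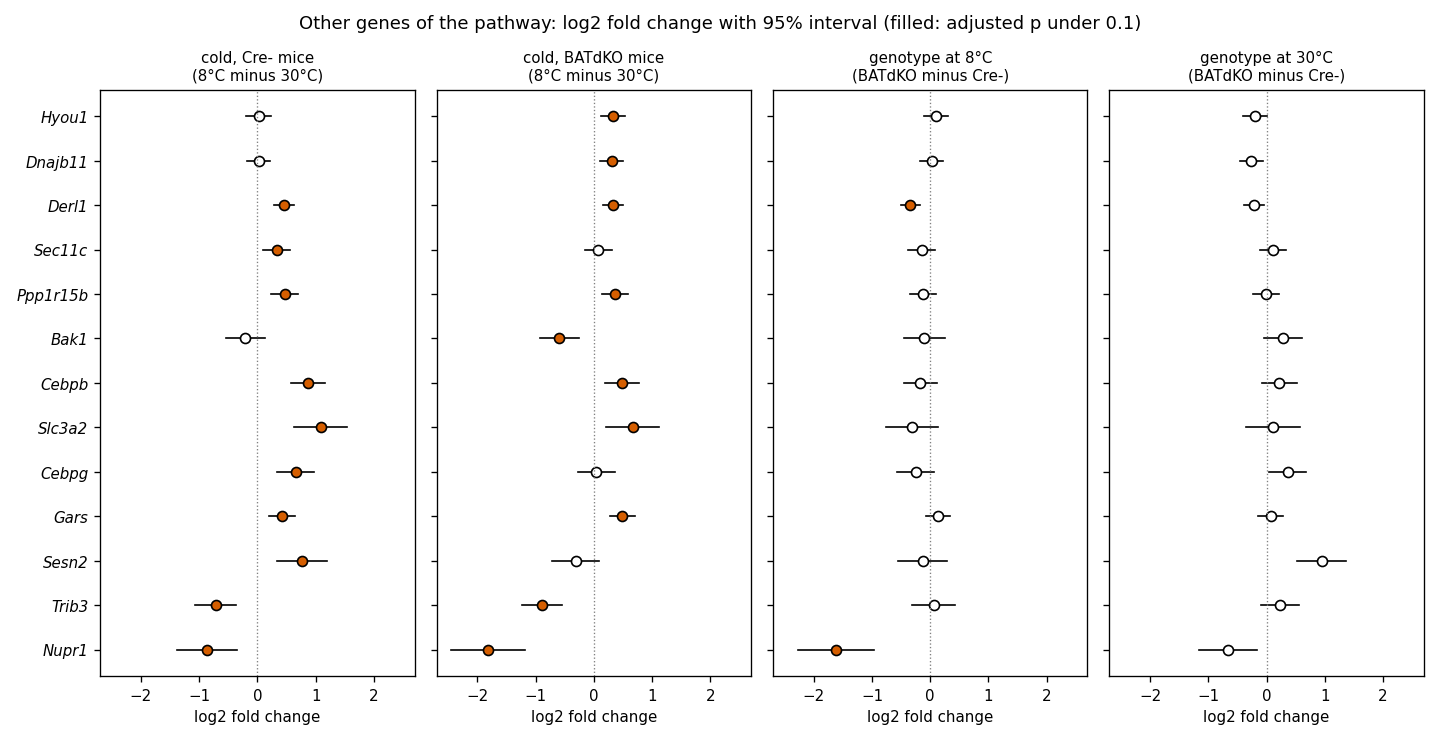
Log2 fold change (x axis) of the 13 other genes of the pathway that passed in at least 1 comparison (y axis) in 4 comparisons (panels), with lines for the 95% interval and filled points where the adjusted p is under 0.1. Nupr1 reaches -1.82 with cold in BATdKO mice and -1.62 for genotype at 8°C, and Slc3a2 reaches 1.09 with cold in Cre- mice.

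Between single mice of a group, many pairs of the 10 genes correlated. After the group means were subtracted from log2 CPM, 28 of the 45 pairs of genes correlated over the 24 mice at an adjusted p under 0.05 (permutation within groups, Benjamini-Hochberg over 45 pairs), 20 of them positively and 8 inversely. The share of correlated pairs among all tested genes was not computed, so this count cannot be read as particular to the 10. Gjb1, a gene outside the 10, had r = 0.96 with Hspa5, above the 0.93 of Hspa5 and Calr. Hspa5, Hsp90b1, Calr and Pdia4 rose and fell together. Hspa5 and Calr had Pearson's r = 0.93 (p = 1e-05, the smallest the permutations can give, adjusted p = 0.00015) and Spearman's rho = 0.91 (adjusted p = 0.00045), with r = 0.90 without the 2 mice farthest from the median. In every pair these 2 mice were chosen by 1 of its genes, here Hspa5, so mice far out only in the other gene stayed in. Within the mice at 30°C r was 0.95, and within the mice at 8°C it was 0.85. Hsp90b1 and Calr had r = 0.84 (adjusted p = 0.00015) and rho = 0.85 (adjusted p = 0.00045, both by permutation), with r = 0.82 without the farthest 2 mice, 0.88 at 30°C and 0.76 at 8°C. Hspa5 and Hsp90b1 had r = 0.77 (adjusted p = 0.000844) and rho = 0.82 (adjusted p = 0.000675), with r = 0.81 without the farthest 2 mice, 0.80 at 30°C and 0.72 at 8°C. An ERSE was found in the windows of these 3 genes, and whether it has a part in their correlations was not tested. Pdia4, whose window held none, was also correlated with Hspa5 (r = 0.83, adjusted p = 0.00015, rho = 0.73, adjusted p = 0.00346, r = 0.78 without the farthest 2 mice, 0.88 at 30°C and 0.72 at 8°C).

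Xbp1 moved against Pdia4 and Atf4. With Pdia4 it had r = -0.83 (permutation p = 3e-05, adjusted p = 0.000337) and rho = -0.74 (adjusted p = 0.00216), with r = -0.75 without the farthest 2 mice, -0.92 at 30°C and -0.56 at 8°C. With Atf4 it had r = -0.81 (permutation p = 0.00011, adjusted p = 0.000707) and rho = -0.74 (adjusted p = 0.00309), with r = -0.76 without the farthest 2 mice, -0.86 at 30°C and -0.72 at 8°C. The inverse relation of Xbp1 to Hspa5 was weaker, with r = -0.63 (permutation adjusted p = 0.0196) and rho = -0.51 (adjusted p = 0.0618), and with r = -0.55 without the farthest 2 mice, -0.73 at 30°C and -0.14 at 8°C, so within the cold mice it did not hold. Dnajb9 went with Xbp1 (r = 0.67, permutation adjusted p = 0.0119, rho = 0.60, adjusted p = 0.0222), with r = 0.56 without the farthest 2 mice, 0.74 at 30°C and 0.34 at 8°C. The library with the fewest counts and those that stood apart in muscle markers or Tbl1xr1 were all at 30°C, and the values at 8°C are without them. The values at 8°C still include BATdKO mouse m1, a library of 2738613 counts.

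**Figure D4:**
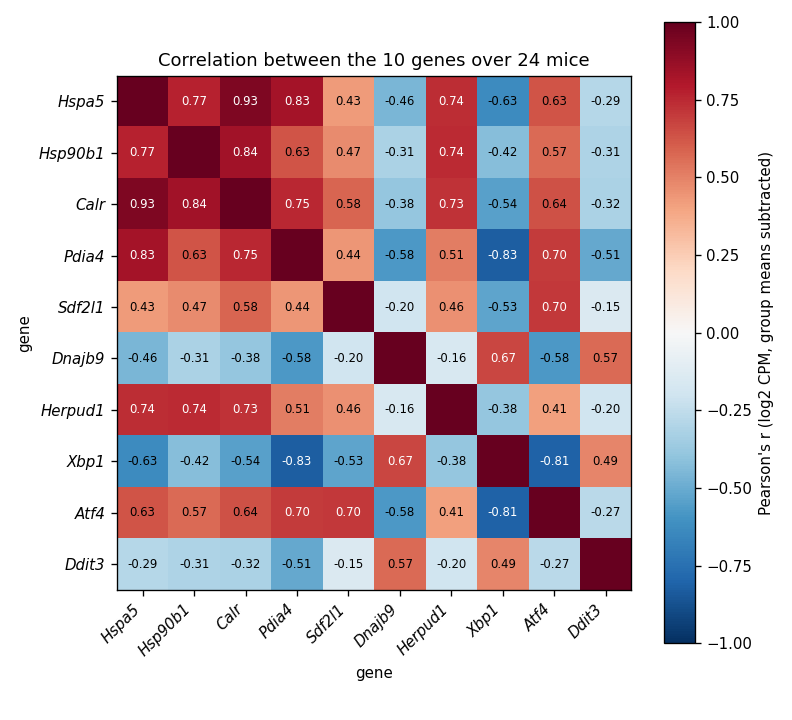
Pearson's r between each pair of the 10 genes (both axes) over 24 mice, from log2 CPM with the group means subtracted, with colour and number giving r. Hspa5, Hsp90b1, Calr, Pdia4 and Herpud1 form a block of positive values up to 0.93, and Xbp1 is inverse to Pdia4 (-0.83) and Atf4 (-0.81). Atf4 and Sdf2l1 are also positive with each gene of that block, with Atf4 up to 0.70 (Pdia4) and Sdf2l1 up to 0.58 (Calr).

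This order followed the content of brown adipocyte markers in each library. The summed level of the 11 markers, with group means subtracted, was inverse to Hspa5 with r = -0.76 (permutation p = 0.00111, adjusted p = 0.00370 over 20 relations) and rho = -0.85 (adjusted p = 6.7e-05), with r = -0.76 without the 2 farthest mice, -0.75 at 30°C and -0.83 at 8°C. The 2 farthest mice were chosen by the marker sum alone. Pdia4 had r = -0.78 (adjusted p = 0.00100), rho = -0.77 (adjusted p = 0.00080) and r = -0.80 without the 2 farthest mice, with -0.76 at 30°C and -0.89 at 8°C. Atf4 had r = -0.72 (adjusted p = 0.00100), rho = -0.73 (adjusted p = 0.00172) and r = -0.74 without the 2 farthest mice, with -0.82 at 30°C and -0.49 at 8°C. Xbp1 went the other way with r = 0.70 (permutation p = 0.00166, adjusted p = 0.00474), rho = 0.64 (adjusted p = 0.0113) and r = 0.69 without the 2 farthest mice, with 0.76 at 30°C and 0.36 at 8°C. Of the other genes, Hsp90b1 (r = -0.76, rho = -0.90), Calr (r = -0.77, rho = -0.85), Sdf2l1 (r = -0.54, rho = -0.54) and Herpud1 (r = -0.53, rho = -0.65) were inverse to the markers with permutation adjusted p from 0.001 to 0.0321 for r, and at 8°C r ranged from -0.82 for Hsp90b1 to -0.19 for Sdf2l1. Dnajb9 (r = 0.51, adjusted p = 0.0865) and Ddit3 (r = 0.41, adjusted p = 0.124) did not pass by r. A library with more brown adipocyte markers than its group thus had smaller shares of Hspa5, Pdia4 and Atf4 counts and, in the warm, a larger share of Xbp1 counts. CPM values are shares of 1 library, so a gain of one kind of RNA lowers the share of another, and the part that this has in these relations was not tested.

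The summed hepatocyte markers rose with Calr (r = 0.69, permutation adjusted p = 0.00370, rho = 0.64, adjusted p = 0.00983), Hsp90b1 (r = 0.66, adjusted p = 0.00502, rho = 0.55, adjusted p = 0.0250), Herpud1 (r = 0.63, adjusted p = 0.0058, rho = 0.49, adjusted p = 0.0423) and Hspa5 (r = 0.57, adjusted p = 0.0281, rho = 0.53, adjusted p = 0.0307). Without the 2 mice farthest in the marker sum, r was 0.49 for Calr, 0.47 for Hsp90b1, 0.46 for Herpud1 and 0.30 for Hspa5. Within the mice at 30°C r was 0.69 for Calr, 0.65 for Hsp90b1, 0.67 for Herpud1 and 0.57 for Hspa5, and within the mice at 8°C it was 0.73, 0.68, 0.57 and 0.62 in the same order. For the other 6 genes r lay between -0.09 and 0.29, with adjusted p from 0.272.

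**Figure D5:**
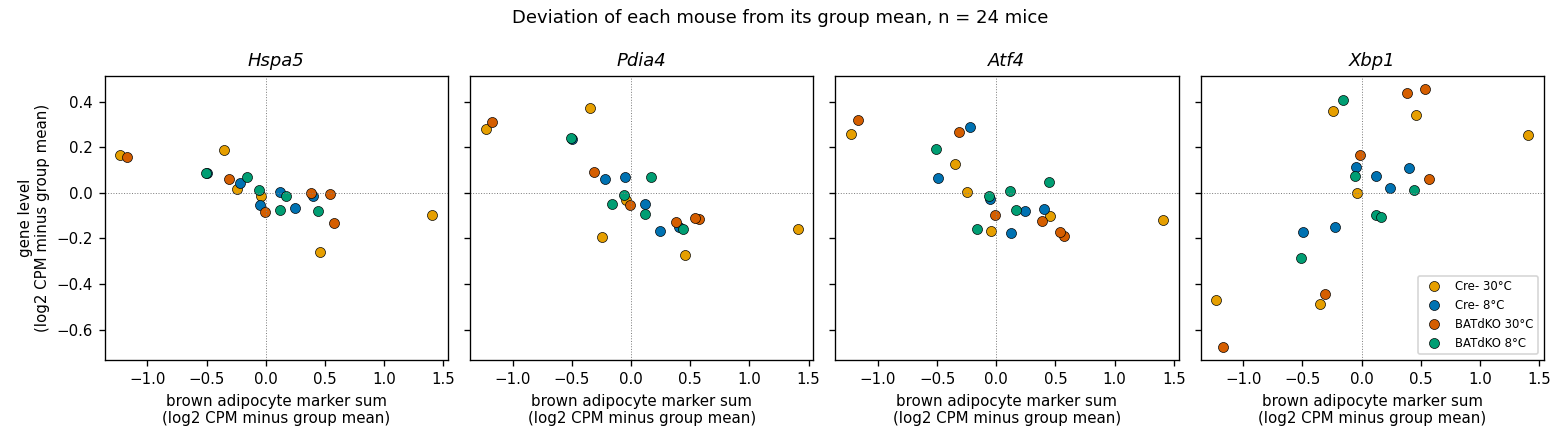
Deviation of the log2 CPM of Hspa5, Pdia4, Atf4 and Xbp1 (panels, y axis) from the group mean against the same deviation of the summed brown adipocyte markers (x axis), 1 point per mouse, n = 24, coloured by group. Hspa5 (r = -0.76), Pdia4 (r = -0.78) and Atf4 (r = -0.72) slope down and Xbp1 (r = 0.70) slopes up.

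The genes outside the 10 whose levels were most like that of Hspa5 over the 24 libraries, with group means subtracted, were Gjb1 (r = 0.96), a gap junction protein, Mat1a (r = 0.96), a methionine adenosyltransferase, Ambp (r = 0.95), a plasma protein precursor, Stard10 (r = 0.95), a lipid transfer protein, and Gstp-ps (r = 0.95). Without the subtraction they were Gstp-ps, Mat1a, Gstp2, Gstp1 and Clu, with r between 0.938 and 0.945. The values are given as a description with no test. Gstp1, Gstp2 and Gstp-ps are near-identical copies among which reads could have been split. Mat1a and Ambp are best known from liver, where Hspa5 is also abundant, and the part of liver RNA in the level of Hspa5 was not tested.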

How the data were processed

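RNA of brown fat of 24 mice was sequenced as 3′ tags. The authors used BBDuk to trim reads, STAR to align these to GRCm38 and Rsubread to sum reads by gene, and they deposited the raw counts of 12615 genes. The paper also reports removal of outliers after quality control, and a figure legend gives fewer mice per group than were deposited. Which libraries the authors left out is not given in the sources used here. All 24 deposited libraries were kept, so the results cover a larger set of mice than the paper's. The annotation release, the strand setting and the rule on low counts are not given in the sources used here. DESeq2 is named in the submitters' processing notes.

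The deposited counts were analysed with edgeR 4.0.16 and limma 3.58.1 in R 4.3.3. Library sizes were normalized by TMM, filterByExpr kept 12485 genes and removed 130, and the quasi-likelihood fit took all 24 libraries, with 1 mean per group. P-values were adjusted by Benjamini-Hochberg over all tested genes, with a threshold of 0.1. The standard error of a fold change is its size over the root of its F statistic. Single genes were also compared by exact permutation over all 924 assignments of 6 mice against 6, whose smallest p is 0.002165. Correlations used 100000 permutations within groups and were chosen after the levels had been seen. Symbols (12608 of 12615 identifiers) and positions are from GENCODE vM21, and promoters are from RefSeq (GRCm38.p6). Python 3.11.15, scipy 1.17.1 and matplotlib 3.10.9 were used. The count models were tested on simulated data.

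The 10 genes, the pathway lists and the marker lists were chosen with earlier results of these data known. Genes named from a list are up to 3 in each direction with the smallest p among those past the threshold in a comparison, or else the 1 with the smallest p. Gars and Sesn2 with cold in Cre- mice, and Asns and Ppp1r15a, lie outside that rule and were named after their values were seen. The numbers m1 to m6 follow sample order and pair no mice. No 2 libraries of a group agreed within sampling noise (chi-square per degree of freedom at least 2.61). Nothing in the labels says whether mice shared a litter or a cage. Total counts per library, 699703 to 11527643, set the precision of single values.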

Additional observations from a re-analysis of the deposited data

How the results depend on the processing

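The fold changes of the 10 genes were recomputed with DESeq2 1.42.0, RLE normalization, every counted gene, genes with a mean count of at least 10, robust dispersion, only the groups compared, without libraries under 3000000 counts, and without each mouse in turn. Together with the settings named below that were chosen after seeing the data, this gave 1690 recomputed values. Of these, 1605 kept their direction and side of the threshold, 79 changed sign without a call, 6 lost a call and 0 gained one. The lost calls include that with the hepatocyte covariate. The number of the 10 that passed with cold in BATdKO mice was 1, ranged from 0 to 1 without single mice, and was 0 with the summed hepatocyte markers as a covariate. That covariate, and fits without Cre- mice m1, m3 and m4 at 30°C or without both mice m6 at 30°C, were chosen after seeing the data.

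Over all genes, 1143 passed with cold in Cre- mice, 883 with cold in BATdKO mice, 227 for genotype at 8°C, 0 for genotype at 30°C and 12 for the interaction. Without single mice these counts ranged from 791 to 1343, 574 to 1069, 138 to 276, 0 to 369 and 7 to 37. The low of 574 came without BATdKO mouse m4 at 8°C and the 138 without BATdKO mouse m5 at 8°C. For genotype at 30°C, 369 came without Cre- mouse m6, 67 without Cre- mouse m2, 47 and 41 without BATdKO mice m4 and m6 at 30°C, and 3 or fewer without any other mouse. The interaction reached 32 to 37 without Cre- mouse m1 or m6 at 30°C or Cre- mouse m2 at 8°C, 21 without BATdKO mouse m4 at 30°C, and fell to 7 without Cre- mouse m5 at 8°C, BATdKO mouse m2 at 30°C or BATdKO mouse m5 at 8°C. Without Cre- mice m1, m3 and m4 at 30°C, 645 passed with cold in Cre- mice, 349 for genotype at 8°C and 26 for the interaction. Without both mice m6 at 30°C, 500 passed for genotype at 30°C and 44 for the interaction. DESeq2 called 90 for genotype at 30°C and 51 for the interaction, robust dispersion 21 for the interaction, only the groups compared 477 for genotype at 8°C, and libraries of at least 3000000 counts 1 for genotype at 30°C. Where no construction shows it, the cause was not tested. For genotype at 30°C, 1303 genes had an unadjusted p under 0.05.

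Counts of 11 to 124 per library limit Ddit3, and similar counts limit Dnajb9. Nupr1, at 1.31 to 2.60 CPM in BATdKO mice at 8°C, is limited further. No paired analysis was possible because the labels number each mouse separately and pair no mice between groups.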
